A study of Mus musculus with 10 samples.

Results

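Neural immunoglobulin adhesion molecules are cell surface proteins built from immunoglobulin and, mostly, fibronectin domains, and 10 of their genes, of 34591 in the deposited table, are described here in mouse embryonic stem cells (mESCs) that lack a subunit of the mitotic deacetylase complex (MiDAC). The members are *Ncam1*, *Ncam2*, *Alcam*, *Mcam*, *Nfasc*, *Nrcam*, *L1cam*, *Chl1*, *Cntn1* and *Cntn2*, and every row that carries one of these symbols was taken. They were picked from the family when their fold changes from WT were already known, so the comparisons with WT are given as a description, in which calls and SEs restate that choice and are no evidence for it. The comparisons between the knockouts and between clones of the same knockout do not use the WT libraries and were tested with adjusted p-values.

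MiDAC is a histone deacetylase complex in which DNTTIP1 and ELMSAN1 act as scaffolds for HDAC1. RNA-seq was performed on 10 libraries, 2 from each of 5 lines of male C57/BL6 Bruce-4 mESCs. Besides WT there are clones D2A7 and D1E6, which lack *Dnttip1*, and clones E2E8 and E2G7, which lack *Elmsan1*, all grown without feeders in naive medium with LIF, the GSK3β inhibitor CHIR 99021 and the MEK inhibitor PD 0325901. Each KO line grew from a single sorted cell after CRISPR/Cas9 editing, so a knockout is represented by 2 clones, whereas the sources do not state that the WT cells were cloned. The libraries of a line are described as biological replicates, whether they were separate cultures is not given in the sources used here, and the p-values below measure only the spread between these libraries. Clones are named by their codes because the KO1 and KO2 numbers of the *Dnttip1* clones differ between the sample titles and the series description.

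Molecules of this group hold cells and axons together by binding to the same molecule or to related ones on the opposite membrane, and many also signal to the actin cytoskeleton. They are best known from the nervous system, where they act in axon outgrowth, bundling and guidance and, later, in the layout of myelinated fibres. NCAM1, NCAM2, ALCAM and MCAM have forms that span the membrane, and NCAM1, NCAM2 and ALCAM can adhere by binding their own kind. NFASC, NRCAM, L1CAM and CHL1 form the L1 family, whose cytoplasmic tails bind the ankyrins of the membrane skeleton. CNTN1 and CNTN2 are contactins, which are held at the surface by a lipid anchor and work in complexes with L1 family members and contactin-associated proteins.

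On NCBIM37, the build used for alignment, *Ncam1* (ENSMUSG00000039542) lies on chromosome 9 from 49310257 to 49607027 and *Mcam* (ENSMUSG00000032135) on the same chromosome from 43942552 to 43950810. *Alcam* (ENSMUSG00000022636) and *Ncam2* (ENSMUSG00000022762) are both on chromosome 16, from 52249109 to 52454187 and from 81200942 to 81624530. *Cntn2* (ENSMUSG00000053024, chromosome 1 from 134406002 to 134439517) and *Nfasc* (ENSMUSG00000026442, 134461268 to 134638374) are neighbours on the minus strand with 21750 bases between them. *Nrcam* (ENSMUSG00000020598) is on chromosome 12 from 45429872 to 45702951, and *L1cam* (ENSMUSG00000031391) on chromosome X from 71099117 to 71141444. *Chl1* (ENSMUSG00000030077) is on chromosome 6 from 103460870 to 103699671, and *Cntn1* (ENSMUSG00000055022) on chromosome 15 from 91881596 to 92172398. All 10 are protein-coding genes of GENCODE vM1.

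The RefSeq promoter table for GRCm38.p6 has an entry for 9 of the 10 members, all except *Ncam1*. The 250 bases before the most upstream start site are shown for *Alcam* and *Nfasc*, which were lower in all 4 KO clones, for *Cntn2*, which was higher in all 4, and for *Mcam*, the member with the highest level. They are written in the direction of transcription and come from chr16:52453082-52453331 (minus strand), chr1:132707327-132707576 (minus), chr1:132542941-132543190 (minus) and chr9:44134408-44134657 (plus). Capitals mark every match, on either strand, to any of 5 motifs found in many promoters, and no matches overlap in these windows. A GC box was searched for as GGGCGG. The CCAAT box has its letters in its name. The letters of a TATA box were taken as TATAAA. For the cyclic AMP response element (CRE) they were TGACGTCA. An E-box was read as CACGTG.
Alcam: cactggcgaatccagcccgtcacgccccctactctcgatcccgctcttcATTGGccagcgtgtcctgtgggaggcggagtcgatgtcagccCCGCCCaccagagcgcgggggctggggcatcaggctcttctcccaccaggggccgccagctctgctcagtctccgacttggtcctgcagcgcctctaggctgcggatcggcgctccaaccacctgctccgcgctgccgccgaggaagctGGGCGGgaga
Nfasc: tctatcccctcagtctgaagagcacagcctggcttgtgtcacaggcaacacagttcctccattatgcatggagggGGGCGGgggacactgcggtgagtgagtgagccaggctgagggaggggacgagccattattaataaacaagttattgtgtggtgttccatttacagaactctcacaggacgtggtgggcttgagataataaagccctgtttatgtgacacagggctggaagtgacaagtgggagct
Cntn2: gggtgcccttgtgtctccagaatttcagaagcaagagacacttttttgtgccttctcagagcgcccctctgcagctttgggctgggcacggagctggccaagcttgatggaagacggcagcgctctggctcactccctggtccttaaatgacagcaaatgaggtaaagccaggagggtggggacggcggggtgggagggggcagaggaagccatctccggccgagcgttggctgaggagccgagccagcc
Mcam: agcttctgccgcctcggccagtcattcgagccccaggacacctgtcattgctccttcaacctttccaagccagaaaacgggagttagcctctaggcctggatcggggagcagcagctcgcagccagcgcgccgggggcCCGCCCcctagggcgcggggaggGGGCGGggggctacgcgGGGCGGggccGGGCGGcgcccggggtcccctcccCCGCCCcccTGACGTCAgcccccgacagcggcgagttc
The *Mcam* window holds 5 GC boxes and 1 CRE, the *Alcam* window 2 GC boxes and 1 CCAAT box, the *Nfasc* window 1 GC box, and the *Cntn2* window none of the 5 motifs. Of the 32851 windows of the table, 32.7% hold a GC box, 33.8% a CCAAT box, 12.4% a TATA box, 1.55% a CRE and 6.02% an E-box. The CpG count, the number of C bases followed by G, was 25 in *Mcam*, 22 in *Alcam*, 10 in *Cntn2* and 4 in *Nfasc*, beside a median of 6 over all windows. G and C made up 61.2% of the *Cntn2* window and 52.0% of the *Nfasc* window, against 69.2% in *Alcam* and 73.6% in *Mcam*. These matches describe letters only, and binding was not analysed here.

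Levels are given in FPKM, fragment counts scaled by exon length and library size, after each library was divided by a factor between 0.965 and 1.01 that equalises the median of 11270 expressed genes. The FPKM values of all 10 members convert back to whole fragments with the exon lengths of GENCODE vM1, to within 0.000128 of a fragment where a member had under 200. The libraries hold between 30182379 and 84291843 such fragments on genes, and the WT libraries are the 2 shallowest. *Dnttip1* was at 8.35 and 8.45 FPKM in WT and between 2.58 and 4.57 in *Dnttip1* KO libraries. *Elmsan1*, which the table lists as *C130039O16Rik*, was at 5.34 and 5.73 FPKM in WT and between 4.62 and 5.13 in *Elmsan1* KO libraries, all below both WT libraries.

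*Mcam*, an adhesion receptor best known from endothelium and melanoma, was by far the most abundant member. Its WT level of 32.6 ± 1.14 FPKM (SD, n = 2) was above that of 93.6% of the genes in the table. *Ncam1*, the principal NCAM of neurons and carrier of polysialic acid, followed at 5.97 ± 0.147 FPKM in WT (SD, n = 2), above 77.9% of genes. *Nrcam* at 1.38 ± 0.026 FPKM and *Alcam* at 1.19 ± 0.102 FPKM in WT (SD, n = 2) were close to each other. *Nfasc* (0.274), *Cntn2* (0.098) and *L1cam* (0.0944 FPKM in WT) were lower still, and *Chl1*, *Cntn1* and *Ncam2* were under 0.05 FPKM in every library. FPKM corrects for exon length, so these levels compare between genes. The plot of levels by library shows all 100 values on axes that start at 0.

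**Figure D1:**
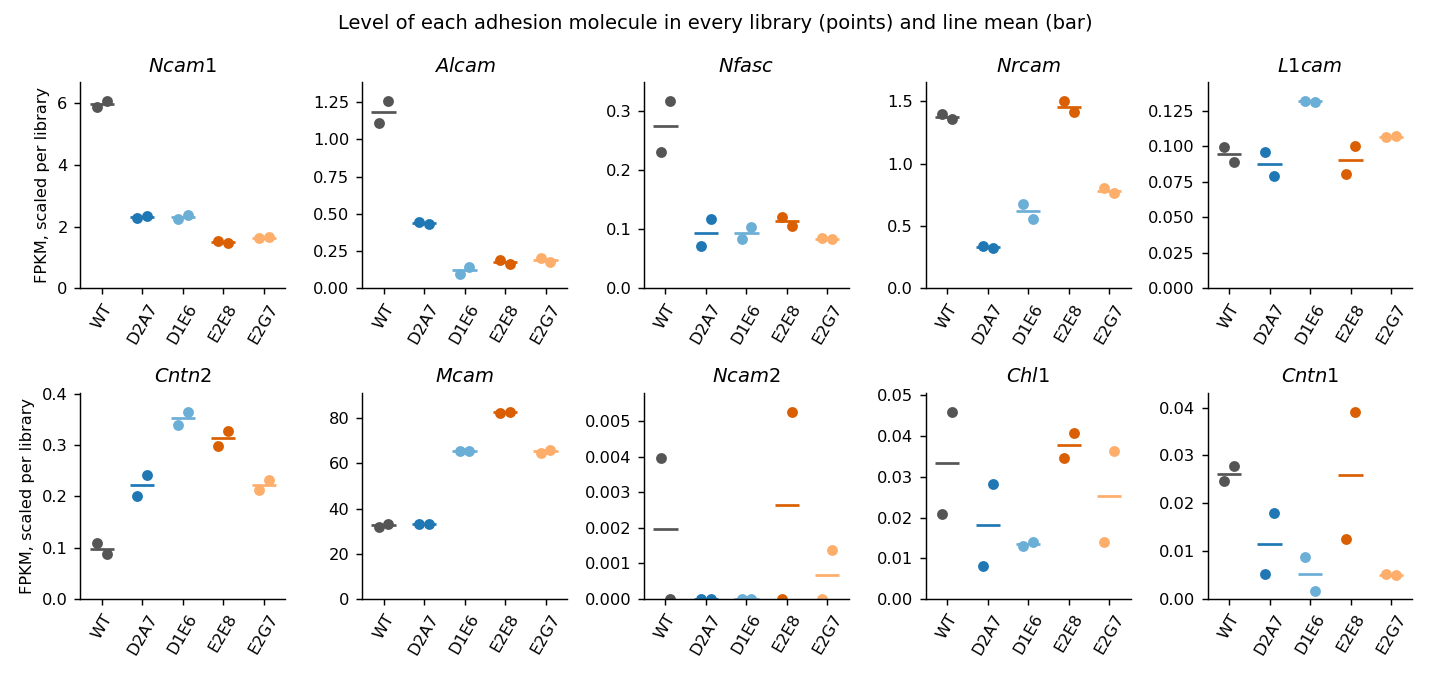
FPKM, scaled per library, of each of the 10 members in the 2 libraries (points) of WT, of D2A7 and D1E6 (Dnttip1 KO) and of E2E8 and E2G7 (Elmsan1 KO), with the mean of each line as a bar. Ncam1, Alcam and Nfasc were highest in WT, Cntn2 was lowest in WT, and Mcam in D2A7 lay beside WT at about 33.2 FPKM.

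Against WT, 7 of the 10 members passed the filter of at least 0.1 FPKM in 2 libraries, and the rest are given by their counts further on. A gene counts as called where limma gave an unadjusted p under 0.01 and the means differed by 1.5-fold or more. In *Dnttip1* KO, 4 members were called lower (*Ncam1*, *Alcam*, *Nfasc* and *Nrcam*), beside 3.24% of all 17435 genes tested, and 1 was called higher (*Cntn2*), beside 3.26%. In *Elmsan1* KO, 3 members were called lower (*Ncam1*, *Alcam* and *Nfasc*), beside 3.68% of all 17205 genes tested, and 2 were called higher (*Cntn2* and *Mcam*), beside 2.74%. The members were chosen with these differences known, so nothing is read from their excess over the background. The 2 WT libraries serve both comparisons, and a deviation in WT enters each of them. Without WT replicate 1, or without WT replicate 2, only *Ncam1* was still called in *Dnttip1* KO. In *Elmsan1* KO *Ncam1*, *Alcam* and *Mcam* were called without either WT library, *Nfasc* only without replicate 1, and *Cntn2* in neither case. When a correlation within clones was estimated, *Ncam1* and *Nrcam* were still called in *Dnttip1* KO, whereas *Alcam*, *Nfasc* and *Cntn2* were not, at the same fold changes. In *Elmsan1* KO *Ncam1*, *Alcam* and *Mcam* were still called with it, and *Nfasc* and *Cntn2* were not. With a pseudocount of 1 *Nfasc* and *Cntn2* lost the call in both knockouts.

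*Ncam1* was lower in every KO clone. WT libraries had 5.87 and 6.08 FPKM, D2A7 2.29 and 2.33, D1E6 2.24 and 2.39, E2E8 1.52 and 1.48, and E2G7 1.63 and 1.66. All 8 KO libraries lay below both WT libraries, and all 4 *Elmsan1* KO libraries below all 4 *Dnttip1* KO libraries. The mean was 2.31 ± 0.061 FPKM in *Dnttip1* KO and 1.57 ± 0.0873 FPKM in *Elmsan1* KO (SD, n = 4 each), 2.58-fold and 3.80-fold under WT. The log2 fold changes were -1.33 (SE 0.0767) and -1.86 (SE 0.0981). These values rest on 1013 to 2354 fragments a library, and the call stood without any single library.

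*Alcam*, which adheres to itself and to CD6 on lymphocytes, had the largest log2 fold change from WT of the 7 members tested in each knockout. In clone D2A7 *Nrcam* and *Ncam1* lay farther from WT on the log2(FPKM + 0.1) scale. By ratio of means *Ncam1* (2.59-fold under WT) was nearer there than *Alcam* (2.71-fold). *Alcam* was at 1.11 and 1.26 FPKM in WT, 0.447 and 0.430 in D2A7, 0.0985 and 0.140 in D1E6, 0.192 and 0.166 in E2E8, and 0.201 and 0.179 in E2G7. Every KO library was below both WT libraries, and within the *Dnttip1* KO the D2A7 libraries stood well above those of D1E6. By clone, the mean was 2.71-fold under WT in D2A7, 9.94-fold in D1E6, 6.63-fold in E2E8 and 6.25-fold in E2G7. The log2 fold changes, on the scale of log2(FPKM + 0.1), were -1.91 (SE 0.481) in *Dnttip1* KO and -2.18 (SE 0.159) in *Elmsan1* KO. D1E6 holds only 34 and 63 fragments of *Alcam*, against 238 and 343 in WT. Besides either WT library, leaving out D1E6 replicate 2 ended the call in *Dnttip1* KO (log2 fold change -1.73), as did a pseudocount of 0.01 (-2.32), a replicate block or the correlation within clones.

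*Mcam* was higher than WT in both *Elmsan1* KO clones and in only 1 of the 2 *Dnttip1* KO clones. It was at 31.8 and 33.4 FPKM in WT and at 33.2 and 33.3 FPKM in D2A7, and the D2A7 libraries lay inside the WT range. D1E6 had 65.4 and 65.3 FPKM, E2E8 82.4 and 82.9, and E2G7 64.8 and 66.1. The mean was thus 2.01-fold that of WT in D1E6, 2.54-fold in E2E8 and 2.01-fold in E2G7, but 1.02-fold in D2A7. The log2 fold change was 1.17 (SE 0.124) in *Elmsan1* KO, which was called, and 0.52 (SE 0.342) in *Dnttip1* KO, which was not. Between 3195 and 21035 fragments a library lie behind these levels. An annotated antisense RNA, *Gm10687*, overlaps *Mcam* and reached at most 1.03 FPKM.

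*Ncam2*, the olfactory relative of *Ncam1*, was at 0 fragments in 7 of the 10 libraries and had at most 3 in the others. A count of 0 allows a level of up to 3 fragments, which in the libraries at 0 is between 0.00444 and 0.00933 FPKM for this gene. The groups were not compared at that depth.

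Within the L1 family, *Nfasc*, which organises the axon initial segment and the node of Ranvier, was at 0.231 and 0.317 FPKM in WT. It was at 0.0713 and 0.118 FPKM in D2A7, 0.0835 and 0.104 in D1E6, 0.121 and 0.105 in E2E8, and 0.0850 and 0.0836 in E2G7. All 8 KO libraries were below both WT libraries, and the ranges of successive KO clones overlapped. The log2 fold changes were -0.94 (SE 0.212) in *Dnttip1* KO and -0.91 (SE 0.202) in *Elmsan1* KO on the log2(FPKM + 0.1) scale. Plain ratios of the means, without the pseudocount, were larger, at 2.92-fold and 2.77-fold under WT. Only 42 to 126 fragments a library support these levels. Leaving out D2A7 replicate 1 (-0.89) or D1E6 replicate 1 (-0.92) also ended the call in *Dnttip1* KO, as did E2G7 replicate 1 or 2 (-0.87 each) in *Elmsan1* KO.

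*Nrcam*, a partner of NFASC and the contactins at the node, had 1.39 and 1.36 FPKM in WT, 0.341 and 0.319 in D2A7, and 0.679 and 0.557 in D1E6. E2E8 had 1.5 and 1.41 FPKM and E2G7 0.803 and 0.761. The order was therefore D2A7, D1E6, E2G7, WT and E2E8, without overlap between neighbours, although WT and E2E8 differed by only 1.06-fold. Its mean in D2A7 was 4.17-fold under WT, in D1E6 2.23-fold and in E2G7 1.76-fold. The log2 fold change was -1.41 (SE 0.292) in *Dnttip1* KO. In *Elmsan1* KO it was -0.33 (SE 0.304) and not called, with E2E8 above and E2G7 below both WT libraries.

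*L1cam*, the founding member of the family and a receptor for axon growth, stayed between 0.0792 and 0.132 FPKM in all 10 libraries, with 22 to 68 fragments each. Log2 fold changes were 0.10 (SE 0.212) in *Dnttip1* KO and 0.03 (SE 0.186) in *Elmsan1* KO, neither called. The D1E6 libraries (0.132 and 0.131 FPKM) were the highest. As deposited, *L1cam* was under 0.1 FPKM in both WT libraries, so against WT it passed the filter through KO libraries alone. In *Dnttip1* KO these were the D1E6 libraries. *L1cam* overlaps *Arhgap4* on the same strand, at up to 0.613 FPKM. *Chl1*, the close homologue of L1, had 4 to 25 fragments a library and at most 0.0460 FPKM. Its chromosome, 6, had a median gene 0.42 higher than WT in D1E6, 0.39 in E2E8 and 0.29 in E2G7 on the log2 scale, and a median of -0.08 in D2A7. For the chromosomes of the other members the clone medians lay between -0.10 and 0.02.

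Of the contactins, *Cntn2*, first known as a transient axonal glycoprotein, was higher in every KO clone. It had 0.108 and 0.0877 FPKM in WT, 0.201 and 0.242 in D2A7, 0.340 and 0.365 in D1E6, 0.299 and 0.328 in E2E8, and 0.212 and 0.232 in E2G7. All 8 KO libraries were above both WT libraries, with D1E6 and E2E8 above D2A7 and E2G7. Ratios of the means to WT were 2.26 in D2A7, 3.60 in D1E6, 3.20 in E2E8 and 2.26 in E2G7. The log2 fold changes were 0.95 (SE 0.244) in *Dnttip1* KO and 0.88 (SE 0.210) in *Elmsan1* KO. WT holds 31 and 32 fragments, the KO libraries 119 to 220. As deposited, only 1 WT library reached 0.1 FPKM, so *Cntn2* passed the filter through the KO libraries, where it was high. A replicate block ended the call in both knockouts. The call in *Dnttip1* KO was also lost without D2A7 replicate 2 (1.00), D1E6 replicate 1 (0.88) or D1E6 replicate 2 (0.85). In *Elmsan1* KO it was lost without E2E8 replicate 1 (0.84) or 2 (0.81).

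*Cntn1*, which pairs with contactin-associated protein 1 beside the node, had 1 to 25 fragments a library. WT libraries were at 0.0247 and 0.0277 FPKM, from 7 and 10 fragments. All 4 *Dnttip1* KO libraries (0.00168 to 0.0179 FPKM, from 1 to 9 fragments) and both E2G7 libraries (0.00527 and 0.0049 FPKM, from 4 fragments each) were below them. E2E8 had 0.0125 and 0.0391 FPKM, on either side of WT. The gene did not pass the filter, and these differences were not tested.

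**Figure D2:**
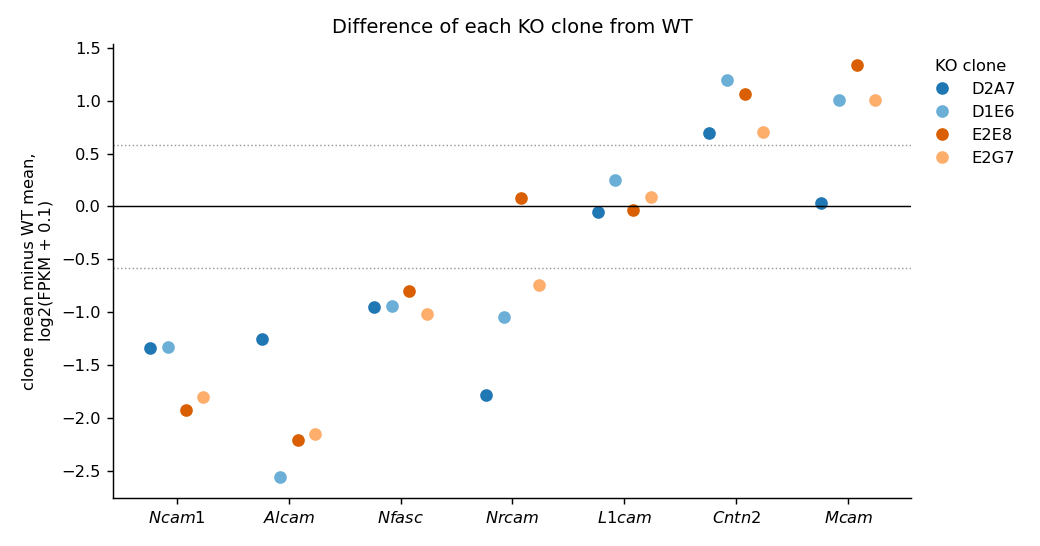
Difference of each KO clone's mean from the WT mean, in log2(FPKM + 0.1), for the 7 members that passed the filter, with 1 point per clone and dotted lines at a fold change of 1.5. Ncam1, Alcam and Nfasc lie below 0 and Cntn2 above 0 in all 4 clones, whereas Nrcam spans from -1.78 in D2A7 to 0.08 in E2E8 and Mcam from 0.03 in D2A7 to 1.34 in E2E8.

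The plot of clone differences shows how unequal the clones were. The SD between libraries of a line, on the log2 scale, ranged from 0.0245 for *Mcam* and 0.0357 for *Ncam1* to 0.163 for *Nfasc* among the 7 members tested. The distance between the lowest and the highest KO clone was 1.86 for *Nrcam*, 1.31 for *Mcam* and 1.30 for *Alcam*. It was 0.59 for *Ncam1*, 0.50 for *Cntn2*, 0.30 for *L1cam* and 0.21 for *Nfasc*. As plain ratios between clone means, the extremes were 4.42-fold for *Nrcam*, 3.68-fold for *Alcam* and 2.49-fold for *Mcam*. Over the 4 clone differences from WT, *Cntn2* and *Mcam* were the closest pair of members, with a root mean square difference of 0.40. *Nfasc* and *Nrcam* (0.62) and *Ncam1* and *Alcam* (0.65) followed, and *Alcam* and *Mcam* were the farthest apart at 3.03. These distances are on the log2(FPKM + 0.1) scale, which shrinks the differences of low genes such as *Cntn2* and *Nfasc*. The order of the pairs is therefore given for that scale only. In D2A7 the plain ratio of means to WT was 2.26 for *Cntn2* and 1.02 for *Mcam*. The clones share the WT reference and the members were chosen on these values, so the likeness of members is a description.

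The knockouts were then compared directly, with 4 libraries each, which asks whether loss of either scaffold left the members at the same level. Of the 7 members tested, 1 (*Nrcam*) was called lower in *Dnttip1* KO, beside 0.415% of all 17600 genes tested, and 0 were called higher, beside 1.11%. *Nrcam* differed by -1.08 (SE 0.290, 95% interval -1.74 to -0.42, limma adjusted p = 0.296), so the difference did not pass the adjustment over all genes. The *Nrcam* call was lost without either D2A7 library (-0.97 and -0.94) or either E2E8 library (-0.93 and -0.96), and also when a correlation within clones was allowed for. *Ncam1* was higher in *Dnttip1* KO by 0.53 (SE 0.0906, interval 0.32 to 0.74, adjusted p = 0.197), with all 4 libraries above all 4 of *Elmsan1* KO, and stayed under the 1.5-fold threshold. *Mcam* differed by -0.66, lower in *Dnttip1* KO (interval -1.22 to -0.09, adjusted p = 0.299). It was called without D1E6 replicate 1 or without D1E6 replicate 2 (-0.82 each).

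For *Alcam* the difference between the knockouts was 0.27 (95% interval -0.51 to 1.06, adjusted p = 0.693), with the D2A7 libraries above and the D1E6 libraries below all 4 *Elmsan1* KO libraries. *Cntn2* (0.06, interval -0.39 to 0.52, adjusted p = 0.889), *Nfasc* (-0.04, -0.42 to 0.34, adjusted p = 0.925) and *L1cam* (0.07, -0.31 to 0.45, adjusted p = 0.842) had differences near 0, with intervals that reach from -0.42 to 0.52 and do not show that the levels are equal. These intervals treat the 4 libraries of a knockout as independent, although they come from 2 clones.

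**Figure D3:**
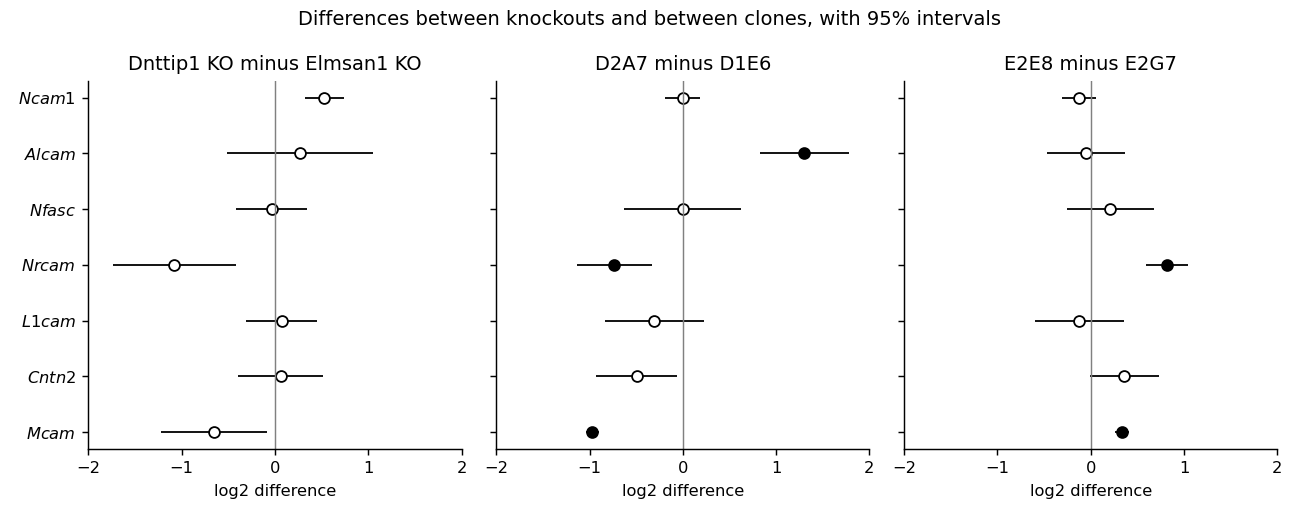
Log2 difference with its 95% interval (line) for the 7 members in the 3 comparisons that do not use WT, filled where the limma adjusted p was under 0.05. Filled points are Alcam, Nrcam and Mcam between D2A7 and D1E6, and Nrcam and Mcam between E2E8 and E2G7, and none between the knockouts. Between D2A7 and D1E6, Alcam passed the filter through D2A7, where it was higher, and nothing is read from its test.

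Between clones of the same knockout 3 members were called, of which *Alcam* is given as a description only. Between the *Dnttip1* KO clones, 2 members were called lower in D2A7 (*Mcam* and *Nrcam*), beside 3.73% of all 16996 genes tested, and 1 was called higher (*Alcam*), beside 9.2%. *Alcam* was higher in D2A7 by 1.30 (SE 0.183, 95% interval 0.82 to 1.78, adjusted p = 0.00638). As deposited, only 1 D1E6 library reached 0.1 FPKM, so *Alcam* passed the filter through D2A7, where it was higher. Nothing is therefore read from its test, and its levels are a description. *Mcam* differed by -0.97, lower in D2A7 (SE 0.0267, interval -1.04 to -0.90, adjusted p = 0.000443), with the smallest SE of the 7 members. *Nrcam* differed by -0.73, also lower in D2A7 (SE 0.153, interval -1.13 to -0.34, adjusted p = 0.0195). The clones thus ranked in opposite order for *Alcam* and *Nrcam*, both of which were lower than WT in either clone. Without D2A7 replicate 1 or 2, which leaves a single library of that clone that is assumed to vary like the other, *Mcam* was still called (-0.97 and -0.98). *Alcam* (1.28 and 1.33) and *Nrcam* (-0.77 and -0.70) were not. Without D1E6 replicate 1 *Nrcam* was not called (-0.61).

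*Ncam1* differed by -0.00 between D2A7 and D1E6 (95% interval -0.19 to 0.18, adjusted p = 0.981), and the libraries of these clones overlapped. *Cntn2* differed by -0.50, lower in D2A7 (interval -0.93 to -0.06, adjusted p = 0.0708). *Nfasc* (-0.00, interval -0.63 to 0.62) and *L1cam* (-0.30, -0.84 to 0.23) could not be resolved, with adjusted p = 0.995 and 0.285. As deposited, *L1cam* reached 0.1 FPKM only in the D1E6 libraries. It thus passed the filter through the clone where it was higher, and nothing is read from its test.

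Between the *Elmsan1* KO clones, 0 members were called lower in E2E8, beside 3.27% of all 16727 genes tested, and 1 was called higher (*Nrcam*), beside 10.5%. *Nrcam* was higher in E2E8 by 0.82 (SE 0.0876, 95% interval 0.59 to 1.05, adjusted p = 0.00243), and this call stood without any of the 4 libraries (0.78 to 0.86). *Mcam* was higher in E2E8 by 0.34 (SE 0.0278, interval 0.26 to 0.41, adjusted p = 0.00136), larger than the spread between libraries but under the 1.5-fold threshold. *Alcam* differed by -0.06 (interval -0.47 to 0.36, adjusted p = 0.796) and *Ncam1* by -0.13 (-0.31 to 0.06, adjusted p = 0.194). *Cntn2* was at 0.36 (-0.01 to 0.73, adjusted p = 0.091), *Nfasc* at 0.21 (-0.26 to 0.68, adjusted p = 0.375) and *L1cam* at -0.12 (-0.60 to 0.36, adjusted p = 0.614). As deposited, *Nfasc* reached 0.1 FPKM only in the E2E8 libraries. It thus passed the filter through the clone where it was higher, and nothing is read from its test.

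*Cntn2* and *Nfasc* are next to each other on chromosome 1, are read in the same direction, and differed from WT in opposite directions in all 4 clones. Beyond them, the 500000 bases on either side hold 15 further genes with a value. Those closest to *Cntn2* were *Tmem81* (-0.14 in *Dnttip1* KO and -0.10 in *Elmsan1* KO) and *Rbbp5* (-0.30 and -0.21), and the nearest beyond *Nfasc* was *Lrrn2* (-0.02 and -0.21), none of them called. Chosen after their values were seen, *Pik3c2b* was called higher in both knockouts (0.89 and 0.75) and *Nuak2* in *Elmsan1* KO alone (0.88, beside 0.41 in *Dnttip1* KO). The median gene of chromosome 1 differed from WT by -0.055 to -0.034 in the clones.

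**Figure D4:**
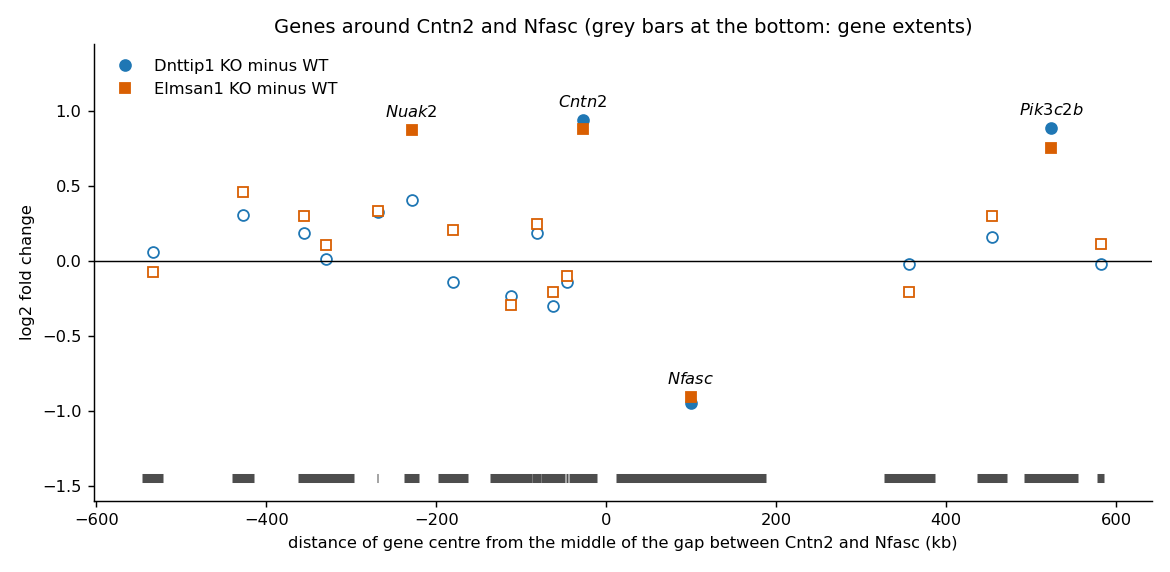
Log2 fold change from WT in Dnttip1 KO (circles) and Elmsan1 KO (squares) of the 17 genes around Cntn2 and Nfasc, against the distance in kb of each gene's centre from the middle of the gap between the pair, with filled symbols for called genes. Cntn2 lies near 0.9 and Nfasc near -0.9 in both knockouts, and the other genes, apart from Pik3c2b and Nuak2, lie between -0.30 and 0.46. Genes with a mean under 0.1 FPKM over all libraries are left out.

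For each member that was called alike in the 2 knockouts, the genes with the most similar clone differences from WT were looked up among 12214 or 12215 others whose mean reached 1 FPKM. For *Ncam1* they were *Lars2*, with a root mean square difference of 0.24, and *Ankrd35* (0.25). For *Alcam* they were *Colec12* (0.27) and *Smoc1* (0.28). *Nfasc* was nearest to *Syce1* (0.06) and *AL772216.27* (0.11), and *Cntn2* to *Mt3* and *Bin2* (0.12 each). The log2(FPKM + 0.1) scale shrinks the differences of low members such as *Nfasc* and *Cntn2* more than those of genes at 1 FPKM or more. By plain ratio of means *Nfasc* was between 2.42-fold (E2E8) and 3.25-fold (E2G7) under WT. Its likeness to *Syce1* is thus one of that scale only. Each likeness is over 4 clones that share the WT libraries.

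The rest of the family was read from a list of related genes. Of 34 other immunoglobulin adhesion molecules (contactins, CADM and nectin proteins, IgLONs, DSCAM, sidekicks and others), 17 were tested against WT in each knockout. In both, 0 were called lower and 1 was called higher, *Nectin1*. The median log2 fold change of those tested was 0.43 in *Dnttip1* KO and 0.29 in *Elmsan1* KO, beside 0.02 and 0.00 over all genes. *Nectin1* (*Pvrl1* in the table), which joins cells at adherens junctions, had a mean of 1.59 FPKM in WT and between 2.66 and 4.19 in the clones, with log2 fold changes of 1.24 (SE 0.131) and 0.88 (SE 0.170). For the 7 members tested the medians were -0.94 and -0.33, values that follow from how the members were chosen.

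Among 26 binding partners (ankyrins, ERM proteins, contactin-associated proteins, receptors and matrix ligands), 14 were tested in *Dnttip1* KO and 0 were called. In *Elmsan1* KO 13 were tested, with 0 called lower and 1 higher. That gene, chosen after its values were seen, was *Cntnap2*, the partner of CNTN2 beside the paranode. Its log2 fold change was 1.25 (SE 0.247) in *Elmsan1* KO and 0.85 (SE 0.495) in *Dnttip1* KO. By line it was at 0.507 FPKM in WT, 0.588 in D2A7, 1.66 in D1E6, 1.69 in E2E8 and 1.06 in E2G7. *Ank3*, the ankyrin of the axon initial segment, was also chosen after its values were seen. It was at 2.37 FPKM in WT and 2.54 to 4.96 in the clones. Its log2 fold changes were 0.25 (SE 0.133) in *Dnttip1* KO and 0.66 (SE 0.271) in *Elmsan1* KO, neither called. Of 5 processing enzymes, 4 were tested and 0 called in either knockout. They include *St8sia4* (0.164 FPKM in WT), which adds polysialic acid to NCAM1, and the proteases *Adam10* (7.51 FPKM) and *Bace1* (8.95 FPKM). The enzymes named here were also chosen after their values were seen.

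**Figure D5:**
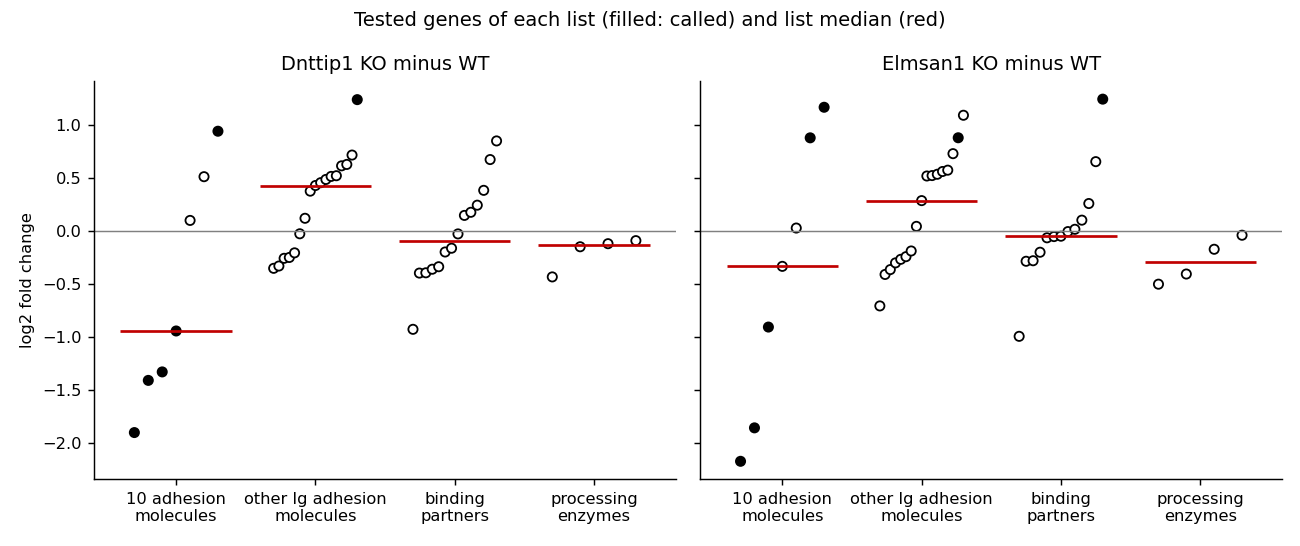
Log2 fold change from WT in each knockout of the tested genes of 4 lists, with filled points for called genes and a red line at the median of each list. Called genes lower than WT are found in these lists only among the 10 members, which were chosen with these values known.

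Markers were read to check the cell type. All 8 naive ESC markers (*Pou5f1*, *Sox2*, *Nanog*, *Zfp42*, *Esrrb*, *Klf4*, *Tfcp2l1* and *Tbx3*) had a mean of at least 1 FPKM in each genotype, summing to 1222 to 1268 FPKM in WT, 1100 to 1226 in *Dnttip1* KO and 990 to 1115 in *Elmsan1* KO, and 0 were called. Of 7 neural markers, *Dcx*, *Rbfox3* and *Pax6* were low in every library, with a highest value of 0.0322 FPKM for *Rbfox3*. The neural list summed to 59.5 to 66.1 FPKM in WT, 84.3 to 95.3 in *Dnttip1* KO and 51.5 to 97.5 in *Elmsan1* KO, nearly all of it *Tubb3* and *Nes*. *Nes* was called higher in both knockouts (1.30 and 0.80), from 4.17 FPKM in WT to 12.7 in D2A7, 8.56 in D1E6, 5.96 in E2E8 and 8.99 in E2G7. Chosen after its values were seen, *Map2* was called lower in *Dnttip1* KO (-1.05). Among 5 primed epiblast markers, and also chosen this way, *T* was called lower in both knockouts (-1.16 and -0.95) and *Otx2* in *Elmsan1* KO (-2.80). The others were *Pou3f1* (-0.15 in *Dnttip1* KO and -0.19 in *Elmsan1* KO) and *Dnmt3b* (0.27 and -0.57), not called, and *Fgf5*, not tested. *Otx2* was at 11.1 FPKM in WT, 10.95 in D2A7, 2.90 in D1E6, 0.752 in E2E8 and 2.97 in E2G7. The part of these shifts in the members' differences was not tested.

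Of 6 fibroblast markers 0 reached 0.15 FPKM, and their sum was 0.0395 to 0.0438 FPKM in WT, 0.0384 to 0.144 in *Dnttip1* KO and 0.0254 to 0.0694 in *Elmsan1* KO. Of 5 endothelial markers, among which *Mcam* is not counted, *Emcn* was at 0 in every library and *Cdh5* and *Tie1* under 0.09 FPKM. *Tek* alone made up most of their sum, 9.46 to 10.2 FPKM in WT, 5.08 to 5.36 in *Dnttip1* KO and 4.97 to 7.34 in *Elmsan1* KO. *Tek* was called lower in *Dnttip1* KO (-0.93) and had a log2 fold change of -0.71 in *Elmsan1* KO. The 5 primitive endoderm markers summed to 0.911 to 1.01 FPKM in WT, 0.606 to 1.38 in *Dnttip1* KO and 0.613 to 0.750 in *Elmsan1* KO. In these bulk samples, fewer cells that express a gene and less RNA per cell cannot be told apart.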

How the data were processed

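RNA of 10 mESC libraries was analysed from the FPKM table that the authors deposited, and every column was used. The authors read stranded total RNA libraries as pairs, used NCBIM37 for alignment and HTSeq for counting, whereas their own differential expression used edgeR 3.16.5, limma and R 3.3.1. The sources name GENCODE vM20 for counting, but 97.2% of the 34591 identifiers are in GENCODE vM1, whose positions and exon lengths were used, and the strand setting of the counting is not given in the sources used here. The instrument of each library is not given in the sources used here.

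Each library was divided by its median ratio over the 11270 genes that reached 1 FPKM everywhere. Genes that reached 0.1 FPKM, as deposited, in 2 or more of the libraries compared were fitted as log2(FPKM + 0.1) by limma 3.58.1 under R 4.3.3 (moderated test with a variance trend, two-sided, Benjamini-Hochberg over all genes tested). A fold change on this scale understates that of low genes. Whole fragments were recovered by dividing FPKM times exon length by the step of each library, 98.3% to 98.6% of values under 100 fragments being whole to within 0.05. Fragments state depth and serve voom, an alternative, and counting error alone is covered by a limit drawn from them. Tables, sequence searches and figures used Python 3.11.15, numpy 2.4.6, pandas 2.3.3 and matplotlib 3.10.9.

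Members, related lists, markers and the rule for named genes were chosen with earlier results of these data known. One marker gene is not reported here. All members are named. From a related list, up to 3 genes are named, those called alike in the 2 knockouts whose mean reached 1 FPKM, and others are said to be chosen after their values were seen. Alternatives were a pseudocount of 1 or 0.01, a minimum mean of 1 FPKM, no filter, FPKM as deposited, all 10 libraries in a single fit, a block on the replicate number, a correlation within clones, voom, and each library left out.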

Additional observations from a re-analysis of the deposited data

Results flagged for a closer look

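Members that differed between clones of the same knockout by a direct test (limma adjusted p under 0.05) are listed here. Between D2A7 and D1E6, *Alcam* was higher in D2A7 by 1.30 on the log2 scale (0.447 and 0.430 FPKM against 0.0985 and 0.140). It passed the filter through D2A7, where it was higher, so nothing is read from its test. *Mcam* differed by -0.97 (33.2 and 33.3 FPKM in D2A7 against 65.4 and 65.3), and *Nrcam* by -0.73 (0.341 and 0.319 FPKM against 0.679 and 0.557). Between E2E8 and E2G7, *Nrcam* differed by 0.82 (1.5 and 1.41 FPKM against 0.803 and 0.761) and *Mcam* by 0.34 (82.4 and 82.9 FPKM against 64.8 and 66.1). Of 20 groups of 4 libraries, 0 had a library far enough from the others to stand out. Each group pools the 2 clones of a knockout. Where these clones differ, as for *Mcam*, no single library lies apart, so the check cannot decide there.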

How the results depend on the processing

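The number of members called against WT was 5 in each knockout. In *Dnttip1* KO it was 3 with a pseudocount of 1, 1 with a minimum mean of 1 FPKM, 2 with the correlation within clones, and 1 to 4 with a library left out. In *Elmsan1* KO it was 3, 2 and 3 under the same settings, and 3 to 4 with a library left out. Between the knockouts 1 member was called, 0 under each of those 3 settings and 0 to 2 with a library left out. Between D2A7 and D1E6 it was 3, and 1 with a pseudocount of 1 or that minimum mean, and 1 to 3 with a library left out. Between E2E8 and E2G7 it was 1, and 0 with a pseudocount of 1. The minimum mean of 1 FPKM lowered counts by leaving members out of the fits, such as *Nrcam* between the knockouts. No member still fitted lost its call under it. Replicate numbers were not taken to pair the libraries. Correlations of same-numbered deviations ranged from -0.194 to 0.337, the highest between D2A7 and E2E8, and cannot show that no pairing exists. A replicate block gave 3 members in *Dnttip1* KO, 4 in *Elmsan1* KO, 1 between the knockouts, and 3 and 1 between clones. With a library left out, signs turned in differences near 0, namely *L1cam* in *Elmsan1* KO against WT (0.03, and -0.0109 without WT replicate 2), *Cntn2* (-0.0337 to 0.176) and *Nfasc* (-0.0942 to 0.0208) between the knockouts, *Ncam1* (-0.0450 to 0.0400) and *Nfasc* (-0.0777 to 0.170) between D2A7 and D1E6, and *Alcam* (-0.122 to 0.0113) between E2E8 and E2G7. *Nfasc* between D2A7 and D1E6 was also 0.000801 with a pseudocount of 1. The cause was not tested. Over all genes, 565 lower and 569 higher calls in *Dnttip1* KO became 255 and 283 with the correlation within clones, and 633 and 472 in *Elmsan1* KO became 253 and 233. With a pseudocount of 1 they were 289 and 251, and 298 and 227. Between the knockouts 73 and 195 became 17 and 37 within clones and 19 and 60 with a pseudocount of 1. Between clones 634 and 1564 became 310 and 726, and 547 and 1752 became 230 and 616, with a pseudocount of 1.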
